A study of Marchantia polymorpha with 6 samples.

Results

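MpPCS (Mp7g00960) and MpABCC1 (Mp1g25480) are the genes that carry the symbols for phytochelatin synthase and for the first listed ABCC transporter of the liverwort Marchantia polymorpha. They were chosen by gene ID and are 2 of the 19472 genes counted in each library, on chromosomes 7 and 1. Both were among the 13544 genes with enough reads to be tested. Poly(A) RNA was sequenced from thalli, the flat green plant body, of the genotype labelled Cam1, grown at 21 °C on Gamborg medium. In the 3 arsenite samples, labelled As(III), the medium also held 2.5 µM sodium arsenite, and the 3 control samples grew on the same medium without it. The labels give no exposure time. They name no separate cultures or plants for the replicates either, so the p-values measure only the spread between these samples, which may be technical.

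Arsenite is trivalent arsenic, which binds tightly to thiol groups. Plants detoxify it with glutathione and with phytochelatins, short thiol-rich peptides that phytochelatin synthase builds from glutathione, and the enzyme is known to be switched on by bound metal ions. In Arabidopsis thaliana, ABC transporters of the C subfamily load phytochelatins bound to arsenic, and glutathione conjugates, into the vacuole, which stores them away from the cytosol. The number in a Marchantia ABCC symbol does not say which Arabidopsis transporter is its counterpart.

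MpABCC1 transcripts fell in thalli grown on arsenite, and those of MpPCS did not pass the test. MpABCC1 was at 7.27 ± 1.04 CPM (scaled reads) in controls and 3.45 ± 0.284 CPM on arsenite (± SD of 3 libraries each), a 2.11-fold fall. MpPCS was at 26.1 ± 3.62 CPM in controls and 27.3 ± 4.53 CPM on arsenite (± SD of 3 libraries each). CPM are reads per 1000000 reads on tested genes, after scaling of the libraries with TMM, edgeR's trimmed mean of M-values. A CPM value grows with transcript length, so the levels of the 2 genes are not compared with each other.

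Library totals ran from 26579324 to 47532310 reads, with control replicate 1 the deepest. Of the 13544 tested genes 566 were called at an adjusted p below 0.05 (4.18%), 276 of them higher on arsenite (2.04%) and 290 lower (2.14%). Unless another tool is named, an adjusted p is that of the quasi-likelihood test in edgeR, with the Benjamini-Hochberg method applied across all tested genes. The CPM values of the groups did not overlap for 28.2% of tested genes, and arsenite was the lower group for 14.4%. Before adjustment, 10.8% of tested genes were higher and 10.3% lower at p below 0.05. DESeq2 called 5.48% of its 14945 genes higher and 4.73% lower. The shares with voom were 1.99% and 1.93%. The counts for gene groups given further on stand beside these shares. Of 6 markers of the thallus body 5 were found by symbol, and all 5 had reads in every library. Their summed level ran from 154 to 186 CPM in controls and from 173 to 220 CPM on arsenite. Most of the sum came from MpNOP1, and 0 of the 5 passed. The fitted change was upward for MpNOP1, MpGCAM1 and MpKAR and downward for MpYUC2 and MpTAA.

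MpPCS, the enzyme step, was read 1144, 790 and 782 times in control replicates 1, 2 and 3, and 791, 716 and 847 times in arsenite replicates 1, 2 and 3. Scaled, these were 23.5, 30.2 and 24.5 CPM in controls and 25.2, 24.2 and 32.5 CPM on arsenite. Each group had 1 library above the others, control replicate 2 and arsenite replicate 3, and the groups overlapped from 24.2 to 30.2 CPM, with arsenite replicate 3 above all controls. Of the 9 pairings of an arsenite with a control library, 6 had more MpPCS on arsenite and 3 had less.

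As arsenite over control, the log2 change (the log2 of the fold change) of MpPCS was 0.07 ± 0.16 (SE), and its 95% interval ran from -0.31 to 0.45. The gene did not pass (adjusted p = 0.839). In fold terms the interval ran from 0.806 to 1.37, so a 2-fold change in either direction lay outside it. With the spread of this gene, a change of 1.70-fold would have been the smallest called. Counting error alone would give a coefficient of variation of 3.36% among controls and 3.58% on arsenite, whereas the libraries varied by 13.9% and 16.6%. Most of the spread between libraries thus lay beyond counting error.

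MpABCC1, the transporter, was read 298, 212 and 242 times in control replicates 1, 2 and 3, and 99, 102 and 97 times in arsenite replicates 1, 2 and 3. Scaled, these were 6.11, 8.10 and 7.59 CPM in controls and 3.16, 3.45 and 3.73 CPM on arsenite. Every arsenite library lay below every control library, and the highest arsenite value was below the lowest control value by 0.71 on the log2 scale. In all 9 pairings of an arsenite with a control library the arsenite library was lower, with log2 differences from -1.36 to -0.71.

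The log2 change of MpABCC1 was -1.07 ± 0.19 (SE), and its 95% interval ran from -1.53 to -0.62. The gene passed (adjusted p = 0.0330). It ranked 333 among 13544 genes by p, and the smallest change that would have been called for it was 1.88-fold, not far from the 2.11-fold measured. The arsenite libraries varied by 8.23%, below the 10.04% that counting error alone would give at about 100 reads, and the controls by 14.2% against 6.36%. The size of the fall barely moved when a library was left out, with log2 changes from -1.17 to -0.99, but the call ended each time. The adjusted p was 0.0704, 0.129 and 0.0526 without arsenite replicates 1, 2 and 3, and 0.0703, 0.0972 and 0.102 without control replicates 1, 2 and 3.

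In bulk tissue, fewer cells of a type and less RNA per cell cannot be told apart. Markers of oil body cells, which store terpenoids in liverworts, were lower in sum on arsenite. Of 6 such markers 5 were found by symbol, none was at 0 in all libraries, and 2 of the 5 fell (MpABCG1 and MpSYP12B), beside 2.14% of all tested genes. The other 3 did not pass, and MpC1HDZ, the most read of the 5, overlapped between groups, with 40.4 CPM in control replicate 1 and 49.3 CPM in arsenite replicate 3 (adjusted p = 0.253). The summed level of the 5 was 81.5 to 117 CPM in controls and 44.3 to 74.5 CPM on arsenite, without overlap. Of 5 markers of male reproductive organs 4 were found, and those tested, MpDUO1 and MpMID, had adjusted p = 0.178 and 0.169. The sum over the 4, 16.5 to 22.9 CPM in controls and 11.4 to 15.6 CPM on arsenite, was also lower without overlap. Of single tested genes, 14.4% were lower without overlap. Most of the sum came from MpMID, which itself overlapped between groups, with 14.4 CPM in arsenite replicate 1 and 14.1 CPM in control replicate 3. In that list the protamine MpPRM was at 0 in every library but 1, and MpLC7 stayed below 0.1 CPM. The part of these cells in the fall of MpABCC1 was not tested.

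**Figure D1:**
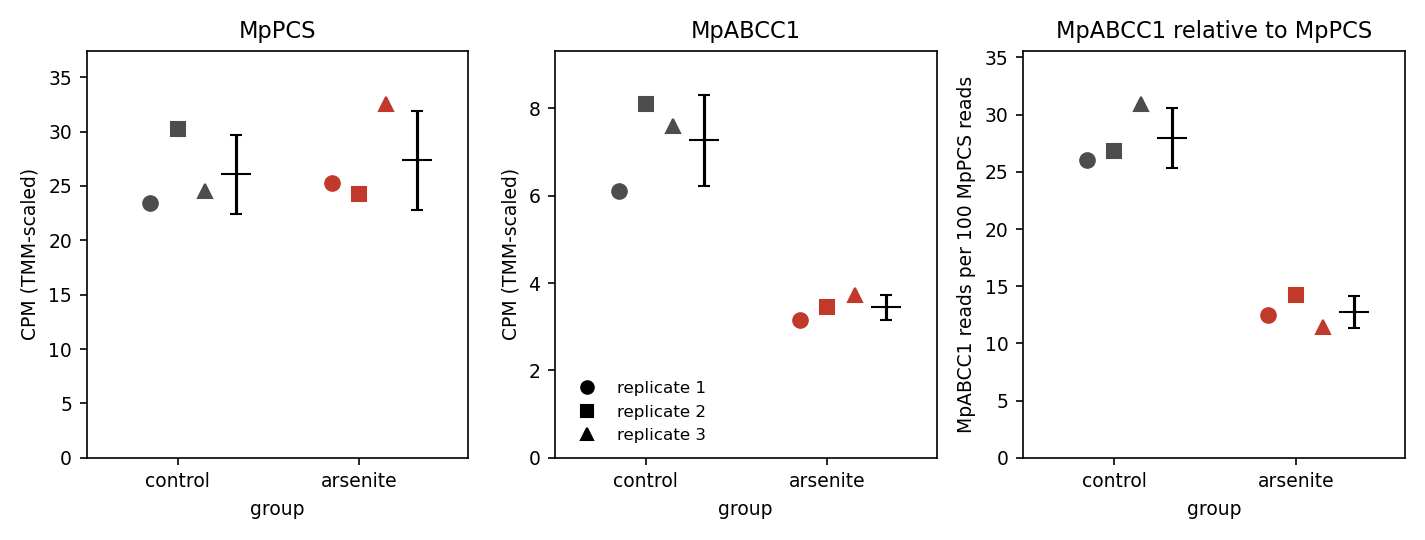
Scaled reads (CPM, linear axes from 0) of MpPCS and MpABCC1, and MpABCC1 reads per 100 MpPCS reads, in each library by group; symbols mark the replicate number and black bars the mean ± SD of 3 libraries. MpPCS overlaps between the groups, while MpABCC1 lies at 6.11 to 8.10 CPM in controls and at 3.16 to 3.73 CPM on arsenite.

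Setting 1 gene against the other within a library removes library scaling altogether. For every 100 MpPCS reads there were 26.0, 26.8 and 30.9 MpABCC1 reads in control replicates 1, 2 and 3. With arsenite there were 12.5, 14.2 and 11.5 in replicates 1, 2 and 3. The groups did not overlap, and the spread inside each group was small beside the distance between them. On the log2 scale the ratio was -1.84 ± 0.13 in controls and -2.98 ± 0.16 on arsenite (± SD of 3 libraries each), a difference of -1.14. That difference stayed between -1.22 and -1.06 when any 1 library was left out. The ratio is given as a description, and whether the fold changes of the 2 genes differ was not tested. Across the 6 libraries the log2 CPM of MpPCS and MpABCC1 had a Pearson r of 0.0042, over points that share libraries and treatment.

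**Figure D2:**
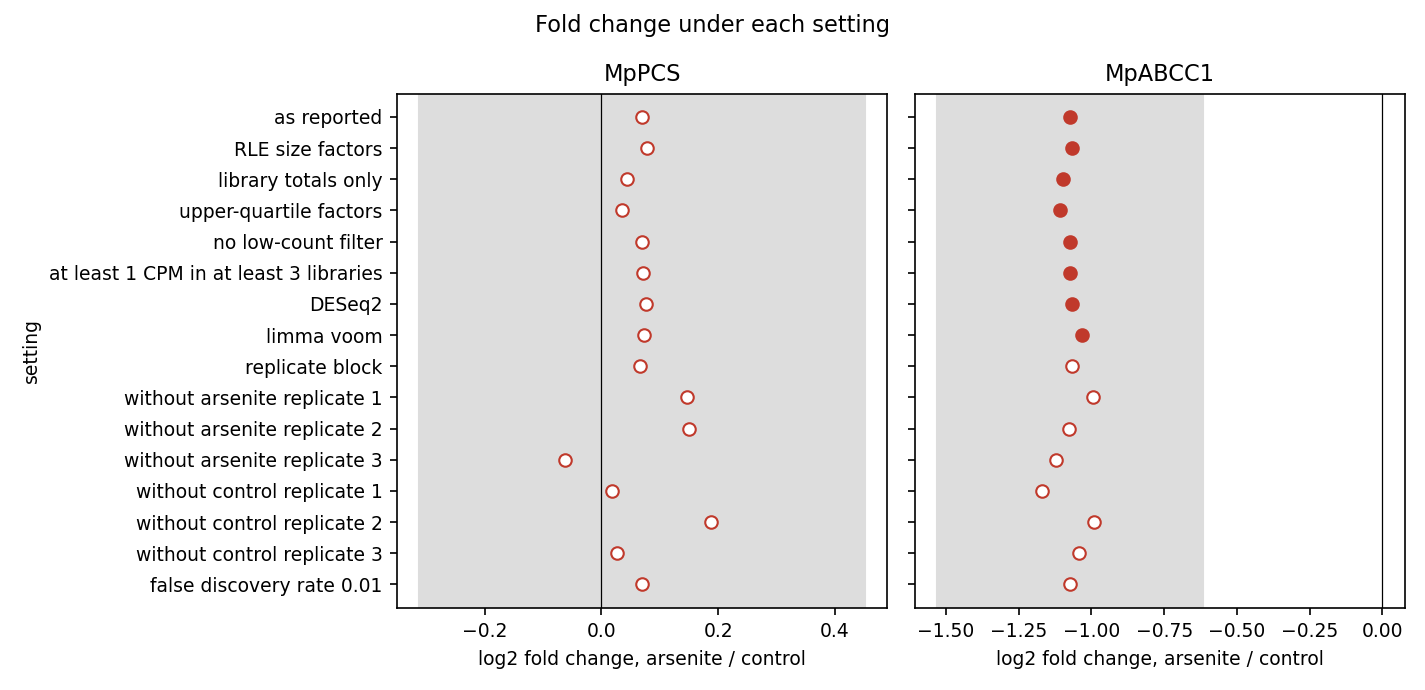
Log2 change (arsenite over control) of MpPCS and MpABCC1 under the reported setting and 15 alternatives; filled points passed the test of that setting, open points did not, and grey bands are the 95% intervals of the reported values. MpPCS stays between -0.06 and 0.19 and MpABCC1 between -1.17 and -0.99, and MpABCC1 is open in each run with a library left out.

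The ABCC subfamily has 15 genes with a symbol, all of them tested. MpABCC1 was the 1 that passed, as a fall, and 0 rose. At an unadjusted p under 0.05, 4 were lower and 2 higher, beside 10.3% and 10.8% of all tested genes, so the 2 higher of 15 lie near that background. Voom called 1 lower, beside 1.93% of all tested genes, and DESeq2 3 lower and 2 higher, beside 4.73% and 5.48% of its genes. The share called lower, 6.67%, stands beside 2.14% over all tested genes, and with 15 genes it rests on that 1 call. Groups did not overlap for 5 lower and 2 higher members, 33.3% and 13.3%, beside 14.4% and 13.8% of all tested genes. The 2 higher thus lie near that background. The median log2 change of the subfamily was -0.01, beside -0.0043 for all tested genes. Its summed level was 841 ± 88.8 CPM in controls and 893 ± 124 CPM on arsenite (± SD of 3 libraries each), and the groups overlapped. MpABCC1 made up 0.862 ± 0.0554% of that sum in controls and 0.388 ± 0.0219% on arsenite.

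MpABCC2 (Mp1g23430) came closest to MpABCC1 in size of change. It stood at 7.28, 9.29 and 10.4 CPM in control replicates 1, 2 and 3, and at 3.70, 3.69 and 5.88 CPM in arsenite replicates 1, 2 and 3. Every arsenite library was below every control library, on arsenite replicate 3 nearest to the controls. Its log2 change was -1.02 ± 0.25 (SE, adjusted p = 0.0757), and it passed without arsenite replicate 3 (adjusted p = 0.0408) and with DESeq2 (adjusted p = 0.00474). MpABCC8 had 181 ± 46.8 CPM in controls and 110 ± 8.86 CPM on arsenite (log2 change -0.72, adjusted p = 0.0819), and its groups did not overlap.

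Other ABCC genes had higher values on arsenite. MpABCC15 had 179, 216 and 189 CPM in control replicates 1, 2 and 3 and 247, 272 and 348 CPM in arsenite replicates 1, 2 and 3. The groups did not overlap, and the log2 change was 0.57 ± 0.15 (SE, adjusted p = 0.0908). MpABCC3 had 3.22 ± 0.512 CPM in controls and 6.48 ± 2.49 CPM on arsenite (log2 change 1.01 ± 0.30, adjusted p = 0.118), on arsenite replicate 1 at 9.35 CPM and the other arsenite libraries at 4.91 and 5.19 CPM. MpABCC13 was set by a single library: 47.8 CPM were read in arsenite replicate 3, against 11.3 and 13.7 CPM in its group's other libraries, and 12.8 to 16.2 CPM in controls.

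The remaining members did not pass either. MpABCC11 and MpABCC12 were lower without overlap, with log2 changes of -0.19 and -0.27. MpABCC4, MpABCC5, MpABCC6, MpABCC7, MpABCC9, MpABCC10 and MpABCC14 overlapped between groups, with log2 changes from -0.34 for MpABCC6 to 0.53 for MpABCC7. MpABCC9 was the least read, at 12 to 65 reads per library. MpABCC11, MpABCC12 and MpABCC13 have nearby IDs on chromosome 5, and MpABCC5 and MpABCC6 on chromosome 4. Where such paralogs are near-identical, the handling of shared reads, which is not given in the sources used here, leaves their separate counts uncertain.

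**Figure D3:**
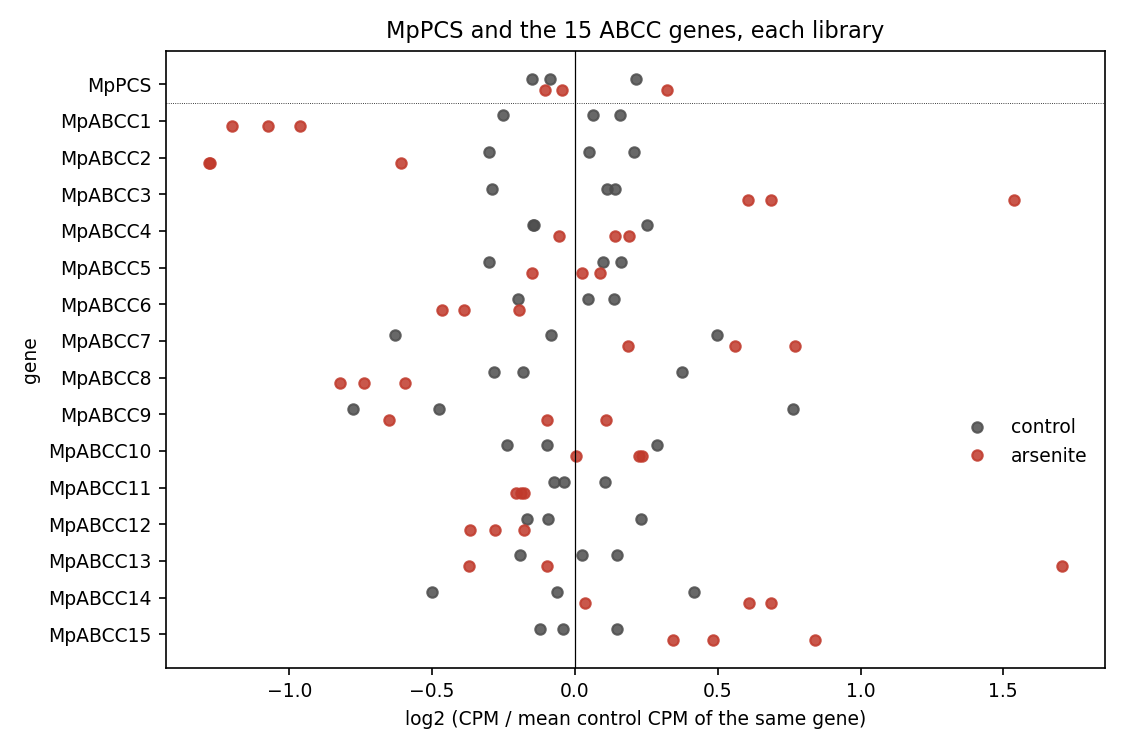
CPM of each library relative to the mean control CPM of the same gene (log2 axis) for MpPCS and the 15 ABCC genes; grey points are controls and red points arsenite libraries. MpABCC1 and MpABCC2 have the lowest arsenite points, but MpABCC2 in arsenite replicate 3, at -0.61, lies above MpABCC8 in arsenite replicate 1, at -0.82. MpABCC3 and MpABCC15 lie above their controls on arsenite, and MpABCC13 has 1 high arsenite library at 47.8 CPM.

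Outside the ABCC subfamily, 58 of 62 ABC transporters with a subfamily letter were tested, of which 2 fell, 1 rose and 55 did not pass. The shares that fell and rose, 3.45% and 1.72%, lie near the 2.14% and 2.04% of all tested genes. The median log2 change of the 58 was -0.01. MpABCB10 (Mp7g04390), of the subfamily that includes auxin exporters in Arabidopsis, fell from 293 ± 52.9 to 146 ± 31.0 CPM (± SD of 3 libraries per group; log2 change -1.003 ± 0.20, adjusted p = 0.0412). MpABCG1, which is the oil body marker above, fell from 28.6 ± 5.75 to 12.6 ± 3.04 CPM (a log2 change of -1.18 ± 0.23, adjusted p = 0.0398). MpABCG5 (Mp4g11430) rose from 0.349 ± 0.121 to 1.64 ± 0.589 CPM (a log2 change of 2.23 ± 0.43, adjusted p = 0.0395), a change that rests on 7 to 63 reads per library. Within subfamilies, 1 of 11 ABCB genes (9.09%) and 1 of 30 ABCG genes (3.33%) fell, and 1 ABCG gene rose (3.33%). Each of these shares rests on 1 gene.

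Glutathione S-transferases, which attach glutathione to the compounds that ABCC transporters then carry, had 5 of 32 tested genes that rose (15.6%, beside 2.04% of all tested genes), 0 that fell and 27 that did not pass. At an unadjusted p under 0.05, 10 were higher and 5 lower, beside 10.8% and 10.3% of all tested genes. DESeq2 called 9 higher and 2 lower, beside 5.48% and 4.73% of its genes. Voom called 5 higher and 0 lower, beside 1.99% and 1.93%. Those that rose were MpGST38, MpGST19, MpGST12, MpGST30 and MpGST10, with log2 changes of 3.18, 1.54, 1.28, 0.97 and 0.86. The list median was 0.07. Neither of the 2 glutathione peroxidases, MpGPX1 and MpGPX2, passed with any of edgeR, voom and DESeq2, nor was p below 0.05 before adjustment for either (0 of 2). Their log2 changes were 0.04 and -0.30.

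Proton pumps set up the gradient across the vacuolar membrane. Of 4 found by symbol 3 were tested, and 0 passed with edgeR or voom. DESeq2 called 1 higher, beside 5.48% of its genes, and 1 was higher at an unadjusted p under 0.05, beside 10.8% of all tested genes. With 3 genes each of these shares rests on 1 gene. MpVHA-a, a subunit of the vacuolar-type proton pump, had 297, 309 and 286 CPM in control replicates 1, 2 and 3 and 412, 403 and 383 CPM in arsenite replicates 1, 2 and 3. Its groups did not overlap, and its log2 change was 0.43 ± 0.09 (SE, adjusted p = 0.0552). The proton-pumping pyrophosphatase MpAVP3 had 1345 ± 50.8 CPM in controls and 1566 ± 87.3 CPM on arsenite (log2 change 0.22, adjusted p = 0.335). MpAVP1 had 0 reads in every library.

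Of 9 genes of metal chelation and transport, MpPCS included, 0 passed with edgeR or voom, while DESeq2 called 2 lower, beside 4.73% of its genes. Before adjustment, 1 was higher and 2 lower at p below 0.05, beside 10.8% and 10.3% of all tested genes. The zinc transporter-like MpZIP5 and the ferric reductase-like MpFRO1 had the smallest adjusted p, with log2 changes of -0.88 and -1.16 (adjusted p = 0.0587 and 0.0740). The list median was -0.09. Of 6 aquaporins, 1 rose and 1 fell (16.7% each, beside 2.04% and 2.14% of all tested genes), and the list median was 0.57. Before adjustment 3 were higher and 1 lower at p below 0.05, beside 10.8% and 10.3% of all tested genes. DESeq2 called 3 higher and 1 lower, beside 5.48% and 4.73% of its genes. Voom called 2 higher and 1 lower, beside 1.99% and 1.93%. MpTIP2, a water channel of the tonoplast class, rose by a log2 change of 1.37 (adjusted p = 0.0219). MpNIP, of the class that conducts arsenite in other plants, fell by 0.81 on the log2 scale (adjusted p = 0.0322).

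The genes next to the pair were read as a description of the 2 places in the genome. Of the 3 genes on each side of MpPCS, 4 were tested, and 0 passed with edgeR, DESeq2 or voom. At an unadjusted p under 0.05 there was 1, Mp7g00980, which was lower, beside 10.3% of all tested genes. Mp7g00980 had the most negative value, with a log2 change of -1.56 ± 0.56 (SE, adjusted p = 0.173) on 9 to 100 reads per library. The genes with the adjacent tested IDs, Mp7g00950 and Mp7g00970, had log2 changes of 0.34 and -0.38.

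All 6 neighbours of MpABCC1 were tested. The next gene after it, the terpene synthase MpMTPSL9 (Mp1g25500), fell from 23.0 ± 10.1 to 2.40 ± 0.690 CPM (± SD of 3 libraries per group; log2 change -3.26 ± 0.39, adjusted p = 0.0112). The gene before it, Mp1g25470, had 3.78 ± 0.422 and 3.35 ± 0.536 CPM (a log2 change of -0.17 ± 0.22, adjusted p = 0.691). Mp1g25450, Mp1g25460, Mp1g25510 and Mp1g25520 had log2 changes of 0.24, 0.16, 0.06 and 0.38, and none of these passed. At an unadjusted p under 0.05 there were 3 of the 6: MpMTPSL9, which was lower, and Mp1g25450 and Mp1g25520, which were higher. Over all tested genes those shares were 10.3% lower and 10.8% higher. With edgeR 1 of the 6 passed, as a fall, beside 2.14% of all tested genes. DESeq2 and voom each called 1 neighbour. Over all genes DESeq2 called 5.48% higher and 4.73% lower, and voom 1.99% and 1.93%. Each of these neighbour counts rests on 1 gene. In the table of gene names, the spans of these neighbours overlapped neither MpPCS nor MpABCC1.

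**Figure D4:**
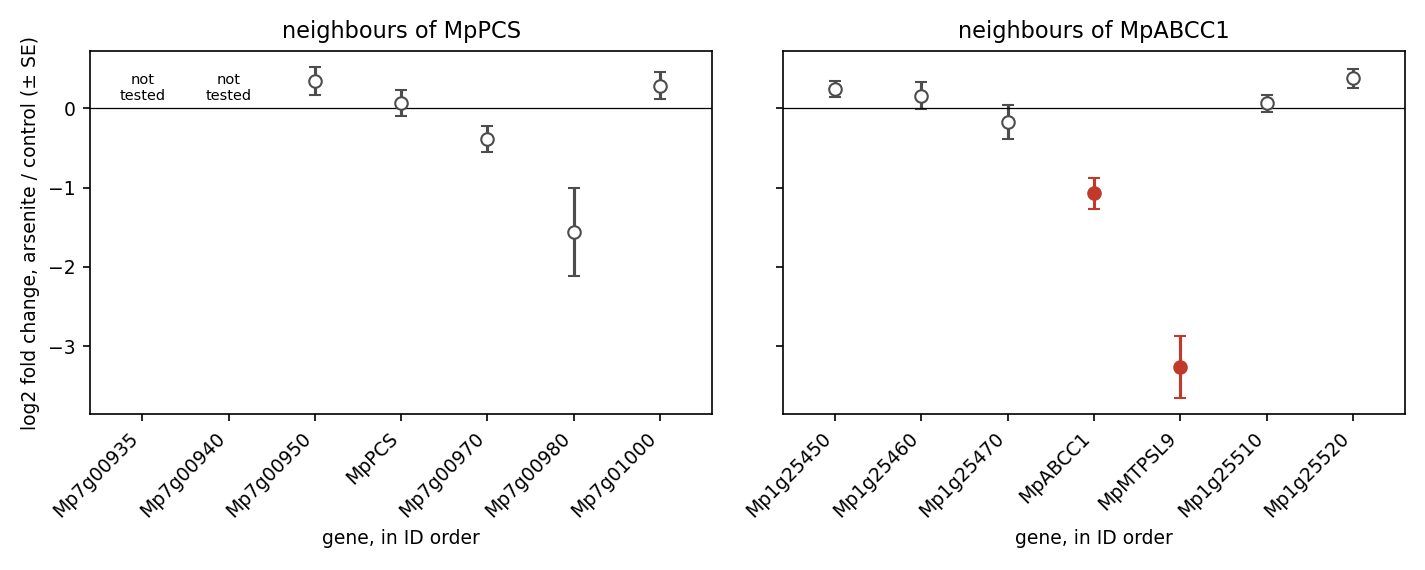
Log2 change (arsenite over control, ± SE from edgeR) of MpPCS and MpABCC1 and of the 3 genes on each side, in the order of their IDs; red filled points passed at an adjusted p below 0.05 and open points did not. MpABCC1 at -1.07 and MpMTPSL9 at -3.26 stand side by side, and the 5 other neighbours of MpABCC1 lie between -0.17 and 0.38.

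Likeness of pattern was measured as Pearson's r of log2 CPM over the 6 libraries, among 2126 named genes whose mean reached 5 CPM. It describes 6 points that share libraries and treatment, and carries no p. The genes most like MpPCS were MpSMXL (r = 0.986), MpBromo8 (r = 0.985), MpALMT4 (r = 0.980) and MpAP2B3-2 (r = 0.977). None of these passed between the groups, with log2 changes from 0.09 to 0.12. The genes least like it were MpPEX10 (r = -0.979) and MpSOD1 (r = -0.952).

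The genes most like MpABCC1 were the class III peroxidase MpPOD164 (r = 0.994), MpMK (r = 0.986), MpNPF5 (r = 0.984) and the auxin influx carrier MpAUX1 (r = 0.983). MpPOD164 fell from 2057 ± 174 to 1223 ± 65.1 CPM (± SD of 3 libraries per group; log2 change -0.75, adjusted p = 0.0303). MpNPF5 and MpAUX1 also fell, with log2 changes of -2.24 and -0.66, while MpMK did not pass (log2 change -0.50, adjusted p = 0.0567). The genes with the lowest r were MpGH16.40 (r = -0.981), which rose by a log2 change of 0.61, and MpDHAR3 (r = -0.981), of ascorbate recycling, at a log2 change of 0.20 (adjusted p = 0.326). MpABCC1 itself lay apart between the groups, so choosing genes by their r with it set these directions in advance. Their calls are thus no separate result.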

How the data were processed

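Each sample has 1 deposited file of raw read counts by gene ID. Per the file names, the authors counted with htseq-count on Galaxy. What aligner, versions, genome build, annotation and strand setting they used is not given in the sources used here. Gene symbols were looked up in the gene table for assembly MpTak2_v7.1, whose locus tags matched file IDs by number for 17671 of 18391 tags. Only genes with a symbol could enter a list. The table's lengths are genomic spans, introns included, so no level per length was computed. No coordinates are printed.

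Counts were tested with edgeR 4.0.16 (R 4.3.3), scaled by TMM and filtered with filterByExpr on the groups, in 1 fit over all genes with Benjamini-Hochberg adjustment. The SE is the log2 fold change divided by the root of F. DESeq2 1.42.0 and limma 3.58.1 (voom) were alternatives, and the procedure was tested on simulated data. Log2 CPM used a prior count of 2. The genes, lists and tests were chosen with earlier results of these data known. Besides the 2 genes, text names every ABCC gene, called list members (or the 2 with the smallest adjusted p), 3 neighbours per side, and the 4 most and 2 least alike genes. GGT symbols have several readings and were left out. Rhizoid markers had no matching symbol.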

Additional observations from a re-analysis of the deposited data

How the results depend on the processing

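Of 15 alternatives, MpABCC1 kept a negative fold change in all 15 and its call in 7, and MpPCS passed in 0, with a positive value in 14. One of the 15, the false discovery rate of 0.01, uses the reported fit, so its fold changes could not move. The call of MpABCC1 ended with the replicate block (log2 fold change -1.07, adjusted p = 0.0660), at a false discovery rate of 0.01 (-1.07), and in all 6 runs with a library left out (-1.17 to -0.99). MpPCS ran from -0.06 to 0.19 with a library left out, and was negative, at -0.063, without arsenite replicate 3. Over all genes the number called was 1526 with DESeq2, 364 with the replicate block, 57 at a false discovery rate of 0.01, and 39 to 461 with a library left out, beside 566. Of the ABCC genes 5 were called with DESeq2, 0 with the replicate block, 0 at a false discovery rate of 0.01, and 0 to 1 with a library left out, that 1 being MpABCC2 without arsenite replicate 3. The cause of these changes was not tested. Same-numbered libraries did not deviate together (r of 0.0084, -0.11 and 0.19 for numbers 1, 2 and 3), so the numbers were not taken to pair the samples. For unlike numbers r ran from -0.45 (control replicate 3 with arsenite replicate 1) to 0.41 (control replicate 2 with arsenite replicate 1). Replicate 2 of each group came in a file with other line ends and an extra tag in its name; whether it was handled differently is not stated and was not tested. The comparison of levels per length was not run, because no transcript lengths were used here. For MpABCC1 the fitted biological coefficient of variation was 21.3%, beside a counting error of 10.04% at about 100 reads per arsenite library, and for MpPCS it was 17.3% beside 3.58%.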
